A study of Rattus norvegicus with 4 samples.

Results

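Resident macrophage and complement C1q genes were followed in cells selected as mast cells from the pancreatic lymph nodes of BioBreeding rats. The set holds 10 genes, C1qa, C1qb, C1qc, Gpnmb, Cd163, Mrc1, Csf1r, Adgre1, Mertk and Clec10a, out of 14217 genes that have a probe set with 1 gene symbol on the array. Every probe set annotated to one of them alone was taken, which gave 11 of 31099, with 2 for Mertk and 1 for each of the others. The first group was the DRlyp/lyp rat, labelled diabetes-prone, which is homozygous for the lyp mutation of Gimap5 and short of peripheral T cells. The second was the DR+/+ rat, labelled diabetes-resistant, which carries the normal allele. Both groups were female BioBreeding rats at day 65, and both were titled AA4+, after an antibody against rat mast cell gangliosides. RNA of 8 animals was taken per group, and each pool was amplified from about 50 ng and hybridised in duplicate to the Affymetrix Rat Genome 230 2.0 array, which gave 4 arrays. The 2 arrays of a pool share its animals, so every test below compares 2 pools and measures the spread of amplification and hybridisation, not that between animals. The number of arrays limits the precision.

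Macrophages of lymph nodes take up dying cells, debris and lymph-borne particles, and depend on signals through the CSF1 receptor for survival. They are a major source of C1q, the recognition unit of the classical complement pathway, whose A, B and C chains are encoded by separate genes and assemble together. C1q binds immune complexes and dying cells, while the receptor kinase Mertk and the scavenger receptors carry material into the cell.

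Selection for AA4 did not leave macrophage transcripts near background. On every array 10 of the 11 member probe sets, 1 for each gene, lay above 28.3, the median of all deposited values outside the control sets and the level used as a filter on dim probe sets. The other Mertk probe set did not, at 2.4 and 3.4 in the DRlyp/lyp pool and 4.9 and 21.8 in the DR+/+ pool, so it was not tested. Kit, the stem cell factor receptor that defines mast cells, lay below the filter on all arrays, at 1.4 and 2.0 in the DRlyp/lyp pool and 10.4 and 11.3 in the DR+/+ pool. Other mast cell markers ranged from bright to dim and differed between the pools in both directions. Mcpt1, a mast cell protease, had a signal of 1665 and 1602 in the DRlyp/lyp pool and 669 and 655 in the DR+/+ pool. Cpa3, the mast cell carboxypeptidase, had a signal of 528 and 516 in the DRlyp/lyp pool and 426 and 462 in the DR+/+ pool, and Ms4a2, the beta chain of the IgE receptor, 64.9 and 69.6 in the DRlyp/lyp pool and 83.2 and 61.5 in the DR+/+ pool. Of the tryptases, Tpsab1 was near the filter in the DRlyp/lyp pool, at 29.8 and 19.9, against 102.8 and 77.0 in the DR+/+ pool, and Tpsb2 likewise, at 34.4 and 28.7 against 92.6 and 89.4 in the DR+/+ pool. Gata2, a transcription factor of mast cells, was too dim to be tested, and Kit, Ms4a2, Gata2 and the tryptases were named for their role after their values were seen. Which cells of the pools gave the macrophage signal was not tested. Differences in the number of macrophages, in RNA per macrophage and in the other cells of a pool cannot be told apart in pooled RNA.

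Of the 10 member probe sets tested, 7 were lower and 2 higher in the DRlyp/lyp pool, and 1 was not past the threshold (limma, adjusted p under 0.05 over all 16068 probe sets tested). Over all probe sets tested, 39.2% were called, 19.9% lower and 19.3% higher. The C1q chains and Gpnmb, 4 of the 10, were lower by at least 2-fold, against 5.93% of all probe sets tested. The 7 were the 3 chains of C1q, Gpnmb, Csf1r, Adgre1 and Mertk, with signal between 31.7% and 62.8% of that in the DR+/+ pool. The lectin receptors Mrc1 and Clec10a were higher, and the haemoglobin scavenger receptor Cd163 was not past the threshold. The median log2 difference of the 10 was -0.79, against 0.00 over all probe sets tested. The 10 genes were chosen with earlier results of these data known, so these comparisons with all probe sets are descriptions, not tests. The arrays of the 2 pools did not overlap for 9 of the 10, 7 lower and 2 higher. That is common on these arrays: 70.0% of all probe sets tested had no overlap, 35.4% lower and 34.6% higher.

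**Figure D1:**
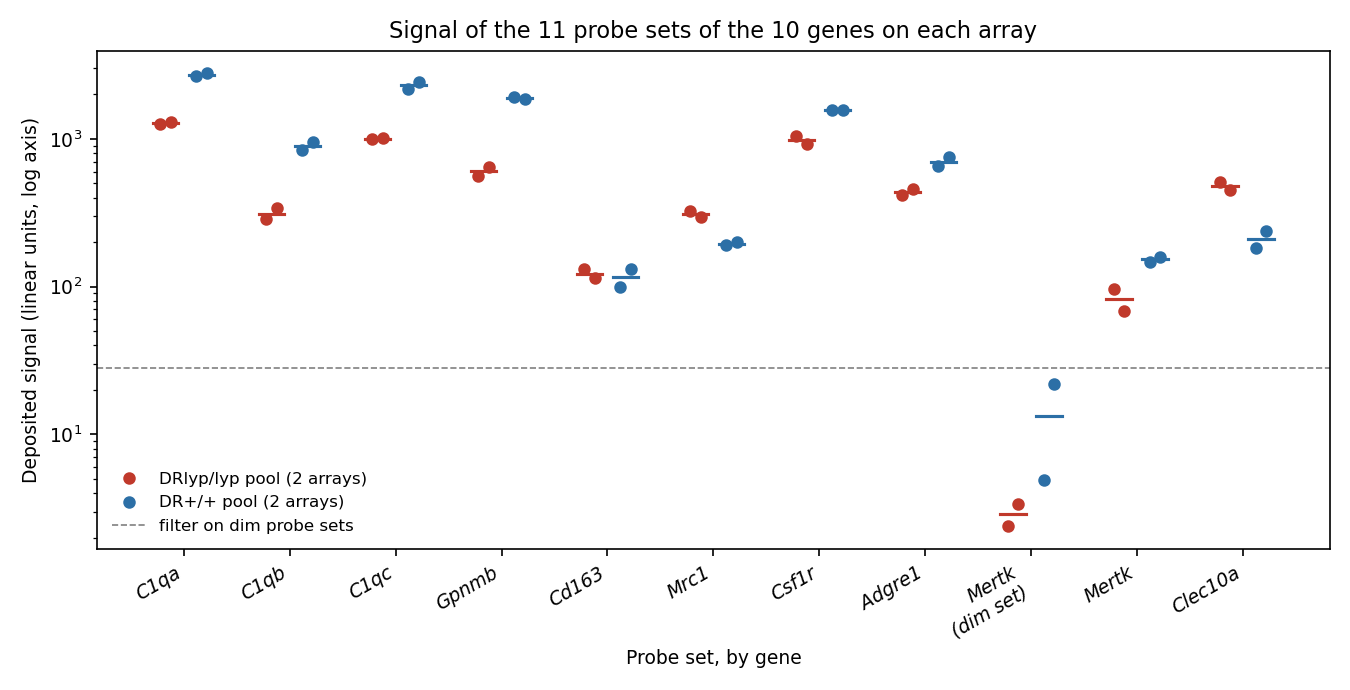
Deposited signal (linear units on a log axis) of the 11 probe sets on each array, with DRlyp/lyp arrays as red points, DR+/+ arrays as blue points, the mean of each pool as a line and the filter of 28.3 dashed. The red points lie below the blue ones for C1qa, C1qb, C1qc, Gpnmb, Csf1r, Adgre1 and both Mertk sets, above them for Mrc1 and Clec10a, and among them for Cd163.

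The 3 chains of C1q were lower together. C1qa, the A chain, had a signal of 1253 and 1288 on the DRlyp/lyp arrays, against 2670.4 and 2769 on the DR+/+ arrays. C1qb, the B chain, had 285 and 337.5 in the DRlyp/lyp pool, against 834 and 952 in the DR+/+ pool. C1qc, the C chain, had 992 and 1013 in the DRlyp/lyp pool, against 2163 and 2432 in the DR+/+ pool. For each chain both DRlyp/lyp arrays lay below both DR+/+ arrays, and the 2 arrays of a pool stood within 1.18-fold of each other. C1qa averaged 1270.5 ± 25.3 in the DRlyp/lyp pool and 2719.6 ± 69.5 in the DR+/+ pool (SD, n = 2 arrays each), 2.14-fold lower (log2 difference -1.10, SE 0.07, limma adjusted p = 3.49e-07). C1qc was 2.29-fold lower (log2 difference -1.19, SE 0.08, limma adjusted p = 6.23e-07). C1qb was 2.87-fold lower (log2 difference -1.52, SE 0.12, limma adjusted p = 2.63e-06).

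The estimated difference varied among the probe sets of the chains. Taken array by array, the log2 ratio of C1qa to C1qb was higher in the DRlyp/lyp pool by 0.42, and the 2 arrays of a pool differed in that ratio by 0.20 in the DRlyp/lyp and 0.14 in the DR+/+ pool. The ratio of C1qa to C1qc was higher by 0.10, with array gaps of 0.01 in the DRlyp/lyp and 0.12 in the DR+/+ pool. That change is smaller than the gap within the DR+/+ pool. These are descriptions of 1 probe set per chain, and the difference between chains was not tested.

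The genes of the 3 chains neighbour each other on rat chromosome 5 in the RefSeq annotation of the GRCr8 assembly, in the order C1qb, C1qc, C1qa, with no other annotated gene between them. On the protein-coding side they are flanked by Ephb2 and Epha8, Eph receptor genes. Promoter windows of 250 bases before to 50 bases after the gene's start were available for 8 of the 10 members, C1qc and Clec10a being the others. Shown here are those of C1qa and C1qb, which were lower together, of Gpnmb, the member with the lowest ratio between pools, and of Mrc1, which was higher. The sequences are RefSeq's for GRCr8 and run 5′ to 3′ on the strand of the gene. Capitals mark matches, on either strand, to GAGGAA (reverse complement TTCCTC), the core of sites for the myeloid factor PU.1. They also mark TGCTGA (reverse complement TCAGCA), part of the site of Maf factors, and CATGTG (reverse complement CACATG), an E-box read by the MITF family. No marked matches overlap. The windows are chr5:154419884-154420183 (minus strand) for C1qa, chr5:154407778-154408077 (minus strand) for C1qb, chr4:79340878-79341177 (plus strand) for Gpnmb and chr17:82157475-82157774 (plus strand) for Mrc1.
C1qa: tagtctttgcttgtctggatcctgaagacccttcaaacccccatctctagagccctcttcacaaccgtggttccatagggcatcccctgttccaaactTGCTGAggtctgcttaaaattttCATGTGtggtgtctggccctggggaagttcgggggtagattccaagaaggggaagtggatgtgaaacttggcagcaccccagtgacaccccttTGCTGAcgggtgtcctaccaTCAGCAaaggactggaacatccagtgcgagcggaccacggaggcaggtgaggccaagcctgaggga
C1qb: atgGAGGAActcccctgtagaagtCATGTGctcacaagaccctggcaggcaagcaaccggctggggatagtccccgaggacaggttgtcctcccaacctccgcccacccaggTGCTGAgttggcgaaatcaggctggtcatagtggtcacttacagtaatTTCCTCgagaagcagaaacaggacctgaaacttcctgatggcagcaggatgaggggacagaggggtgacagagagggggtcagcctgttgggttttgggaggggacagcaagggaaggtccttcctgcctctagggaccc
Gpnmb: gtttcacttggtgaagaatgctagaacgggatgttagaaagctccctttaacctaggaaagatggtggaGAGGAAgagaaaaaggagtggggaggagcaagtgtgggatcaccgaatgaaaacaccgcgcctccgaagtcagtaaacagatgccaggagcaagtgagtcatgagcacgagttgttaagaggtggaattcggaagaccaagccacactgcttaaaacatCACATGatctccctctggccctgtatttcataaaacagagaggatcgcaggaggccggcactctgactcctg
Mrc1: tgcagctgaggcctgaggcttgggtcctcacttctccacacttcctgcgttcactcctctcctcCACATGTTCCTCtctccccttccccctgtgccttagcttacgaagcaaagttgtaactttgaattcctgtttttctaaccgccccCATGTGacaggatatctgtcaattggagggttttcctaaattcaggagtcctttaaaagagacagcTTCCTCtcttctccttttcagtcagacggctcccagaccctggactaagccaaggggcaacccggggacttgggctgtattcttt

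TGCTGA stood in the windows of C1qa, C1qb and Adgre1, 3 of the 8, and in 18.4% of the 33469 RefSeq promoter windows. In C1qa it occurred 3 times, beginning 152, 36 and 16 bases before the start, the last as its reverse complement. GAGGAA stood in 5 of the 8, those of C1qb, Gpnmb, Csf1r, Adgre1 and Mrc1, and in 27.6% of all windows. CATGTG stood in the windows of C1qa, C1qb, Gpnmb and Mrc1, 4 of the 8, and in 14.0% of all windows. The Gpnmb match, as CACATG, begins 22 bases before the start. CACGTG, another E-box of that family and its own reverse complement, stood in 0 of the 8 and in 6.42% of all windows. The matches do not divide the members that were lower from Mrc1, and a match of 6 letters does not show a bound site.

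Gpnmb, a glycoprotein of lysosomes and phagosomes in macrophages, differed most among the 10. Its signal was 561 and 642 on the DRlyp/lyp arrays, against 1920.5 and 1863.5 on the DR+/+ arrays. Both DRlyp/lyp arrays lay below both DR+/+ arrays. The gene was 3.15-fold lower (log2 difference -1.66, 95% interval -1.85 to -1.46, limma adjusted p = 1.2e-07), and 1.2% of all probe sets tested had a more negative difference. Gpnmb and C1qb had overlapping ratios from array to array, with a change in log2 ratio of 0.13, so their order is not established.

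Receptors that define and maintain macrophages were lower by less. Csf1r, the receptor for CSF1 and interleukin 34, had a signal of 1039 and 921.5 in the DRlyp/lyp pool, against 1556 and 1559.5 in the DR+/+ pool. Adgre1, the adhesion receptor known in the mouse as F4/80, had 416 and 459 in the DRlyp/lyp pool, against 653 and 747 in the DR+/+ pool. Both genes were low on both DRlyp/lyp arrays, with no overlap. Csf1r was 1.59-fold lower (log2 difference -0.67, SE 0.08, limma adjusted p = 7.67e-05) and Adgre1 1.6-fold lower (log2 difference -0.68, SE 0.11, limma adjusted p = 0.000573). Their 95% intervals, -0.85 to -0.49 and -0.92 to -0.43, did not overlap those of the C1q chains, whose upper ends were -0.95 for C1qa, -1.02 for C1qc and -1.26 for C1qb. Taken array by array, the log2 ratio of C1qa to Csf1r was lower in the DRlyp/lyp pool by 0.43 (a change of -0.43), with array gaps of 0.21 in the DRlyp/lyp and 0.05 in the DR+/+ pool. Both calls were lost when the difference was tested against 1.5-fold (adjusted p = 0.805 for Csf1r and 0.964 for Adgre1) and without the filter on dim probe sets (adjusted p = 0.0597 and 0.0858).

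Mertk, a receptor kinase through which macrophages engulf dying cells and the gene mutated in the Royal College of Surgeons rat, was the dimmest of those lower. Its tested probe set had a signal of 96.9 and 68.1 in the DRlyp/lyp pool, against 146 and 159.5 in the DR+/+ pool. The groups did not overlap, but the 2 DRlyp/lyp arrays stood 1.42-fold apart, the widest gap within a pool among the 10. Mertk was 1.88-fold lower (log2 difference -0.91, SE 0.22, limma adjusted p = 0.00689). With 1 array left out, here and below, its pool has a single array, 1 residual degree of freedom remains, and the spread comes from the 2 arrays of the other pool and from limma's prior over all probe sets, so the single array is assumed to vary like them. Without DRlyp/lyp replicate 2 the difference was -0.66 and not past the threshold (adjusted p = 0.0962). The call was also lost without the filter (adjusted p = 0.164) and in the test against 1.5-fold (adjusted p = 0.538).

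Clec10a, a lectin receptor for galactose-type sugars found on macrophages and dendritic cells, went the other way. Its signal was 507 and 453 on the DRlyp/lyp arrays, against 182 and 236 on the DR+/+ arrays. Both DRlyp/lyp arrays lay above both DR+/+ arrays. Clec10a was 2.31-fold higher (log2 difference 1.21, 95% interval 0.88 to 1.54, limma adjusted p = 8.18e-05), a call that did not hold without the filter (adjusted p = 0.0807). Mrc1, the macrophage mannose receptor, had a signal of 322 and 297 in the DRlyp/lyp pool, against 191 and 199 in the DR+/+ pool. It was 1.59-fold higher (log2 difference 0.67, SE 0.14, limma adjusted p = 0.00283). Without DRlyp/lyp replicate 1 the Mrc1 call was lost (log2 difference 0.61, adjusted p = 0.063), as it was in the test against 1.5-fold (adjusted p = 1). The log2 ratio of C1qa to Clec10a was lower in the DRlyp/lyp pool, with a change of -2.31, and that of C1qa to Mrc1 had a change of -1.76. The 2 arrays of a pool differed in these ratios by at most 0.33.

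Cd163, the scavenger receptor for haemoglobin bound to haptoglobin and the ED2 antigen of rat resident macrophages, did not follow either course. Its signal was 131 and 114 in the DRlyp/lyp pool, against 99.7 and 132 in the DR+/+ pool. The arrays overlapped, and the difference of 0.09 was not past the threshold (95% interval -0.37 to 0.55, limma adjusted p = 0.771). The interval leaves room for a difference of up to 0.55 upward, and excludes one of the size seen for Csf1r.

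**Figure D2:**
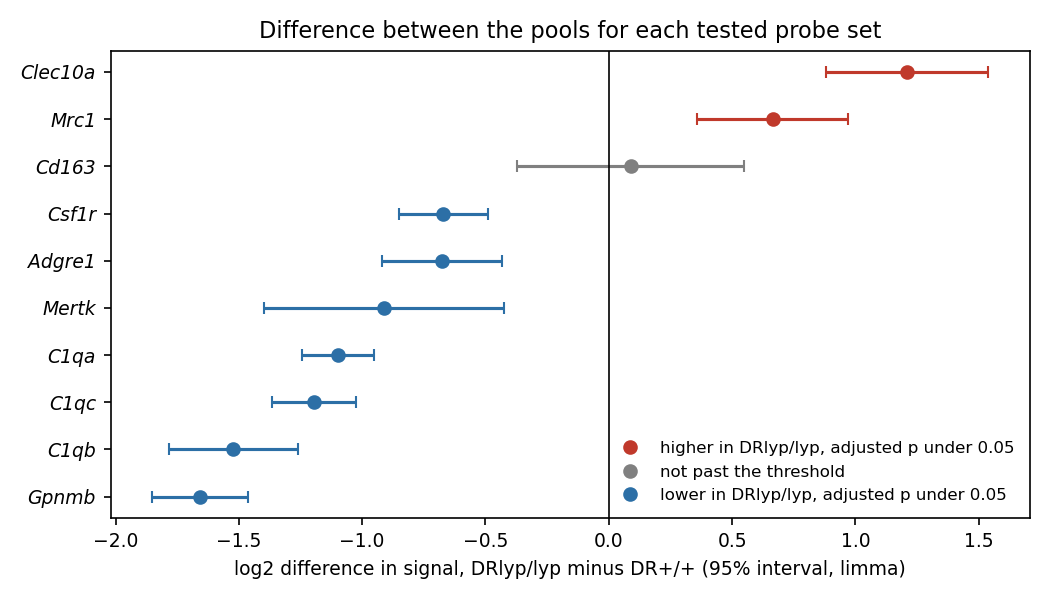
Log2 difference in signal, DRlyp/lyp minus DR+/+, of the 10 tested probe sets with the 95% interval from limma, in red where higher, blue where lower and grey where not past adjusted p 0.05. Values run from 1.21 for Clec10a to -1.66 for Gpnmb, and the interval of Cd163 spans 0.

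Other macrophage markers, listed apart from the 10 genes, were mostly lower as well. Of 32 genes 29 had a probe set and 27 were tested; 18 of these were lower and 3 higher, and their median log2 difference was -0.52. Over all 9349 genes tested with 1 probe set per gene, 20.9% were higher and 21.1% lower. Mmp12, the macrophage metalloelastase, had a signal of 375 and 317 in the DRlyp/lyp pool, against 1694 and 1933 in the DR+/+ pool. Ctsd, the lysosomal protease cathepsin D, had 455 and 452 in the DRlyp/lyp pool, against 1675 and 1710.0 in the DR+/+ pool, and was 3.73-fold lower (limma adjusted p = 2.38e-08). Both were low on both DRlyp/lyp arrays. Apoe, the lipid carrier apolipoprotein E, had 3166 and 3203 in the DRlyp/lyp pool, against 5711 and 5869 in the DR+/+ pool, and was 1.82-fold lower (limma adjusted p = 2.53e-07). Aif1, the actin-binding protein Iba1, was 1.98-fold lower (limma adjusted p = 1.82e-05). The 3 higher genes were Ptgs1, the cyclooxygenase, Lyz2, lysozyme, and Cd68, a lysosomal glycoprotein. Lyz2 had 10795 and 10459 in the DRlyp/lyp pool, against 7377 and 7127 in the DR+/+ pool. Cd68 had 2513 and 2568 in the DRlyp/lyp pool, against 1746 and 1846 in the DR+/+ pool. Another 6 tested genes of the list were not past the threshold. Among them, Mpeg1 had 6070 and 5562 in the DRlyp/lyp pool, against 5902 and 6195 in the DR+/+ pool (limma adjusted p = 0.429). That is its brightest probe set, and a dim one was lower (limma adjusted p = 0.023). Cd14 had 744 and 844 in the DRlyp/lyp pool, against 727 and 869 in the DR+/+ pool (limma adjusted p = 0.979). Leaving out DRlyp/lyp replicate 1 ended the call of Ptgs1 (adjusted p = 0.115). Without the filter 6 genes of the list were lower and 1 higher, and in the test against 1.5-fold 11 and 0. Apoe, Aif1, Mpeg1 and Cd14 were named after their values were seen.

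Among other complement genes, 17 of 36 were tested, 7 of them lower and 2 higher, and the median was -0.33. C1r, the protease that C1q activates, was dim, at 29.2 and 34.3 in the DRlyp/lyp pool and 21.0 and 20.6 in the DR+/+ pool, and was not past the threshold (log2 difference 0.61, limma adjusted p = 0.261). Its partner C1s lay below the filter on all arrays. C3, the component on which the complement pathways converge, had a signal of 2596 and 2382 in the DRlyp/lyp pool, against 1183 and 1123 in the DR+/+ pool, 2.16-fold higher (limma adjusted p = 6.72e-07). C3 thus stood above on both DRlyp/lyp arrays while the C1q chains stood below. Cfp, properdin, which stabilises the alternative pathway convertase, was 2.17-fold lower on its brighter probe set (259 and 227 in the DRlyp/lyp pool, against 514 and 539 in the DR+/+ pool), but its other probe set showed a difference of -0.02 (limma adjusted p = 0.919). The count of 7 lower was 3 without DRlyp/lyp replicate 1, 3 without DRlyp/lyp replicate 2 and 3 without DR+/+ replicate 1, and 1 gene was higher without DRlyp/lyp replicate 1 or DR+/+ replicate 1. C1r and C1s were named for their role after their values were seen.

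Of 28 tested genes of apoptotic cell uptake, the pathway of Mertk, 8 were lower and 7 higher, and the median was 0.02. That balance depends on the scaling, since 10 were lower and 4 higher with each array centred on its median, and 10 were lower and 6 higher with probe sets averaged. Axl, a receptor kinase of the same family, had a signal of 454.5 and 335 in the DRlyp/lyp pool, against 616 and 664 in the DR+/+ pool, 1.64-fold lower (limma adjusted p = 0.00181, or 0.0609 with no intensity trend). The third kinase of the family, Tyro3, lay below the filter on all arrays. Pros1, protein S, a ligand of these kinases, had 107 and 92.2 in the DRlyp/lyp pool, against 29.9 and 37.7 in the DR+/+ pool, 2.95-fold higher (limma adjusted p = 0.000975). The probe sets of the other ligand, Gas6, disagreed: the brightest differed by 0.08 (limma adjusted p = 0.806), and another by 1.40 (limma adjusted p = 0.00413), which was not past the threshold once DRlyp/lyp replicate 2 was left out (adjusted p = 0.0722). The counts fell to 2 higher and 5 lower without DRlyp/lyp replicate 1 and to 2 higher and 4 lower without DRlyp/lyp replicate 2, and 4 were lower without DR+/+ replicate 2. Axl, Gas6 and Tyro3 were named for their role after their values were seen.

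Of 22 tested genes of the CSF1 receptor axis and of macrophage transcription factors, 6 were lower and 7 higher, and the median was 0.13. With probe sets averaged, 6 were lower and 5 higher. The probe sets of Zeb2, counted as higher, disagreed. The brightest differed by 1.36 (limma adjusted p = 2.88e-05), and others by -0.99 (limma adjusted p = 0.000327), -0.74 (limma adjusted p = 0.00731) and 0.07 (limma adjusted p = 0.86). The ligand Csf1 was not past the threshold on its brightest probe set, at 153 and 151 in the DRlyp/lyp pool and 106 and 144 in the DR+/+ pool (limma adjusted p = 0.264), and the other ligand, Il34, lay below the filter on all arrays. Spic, a transcription factor of iron-recycling macrophages in the mouse, had a signal of 267 and 217 in the DRlyp/lyp pool, against 470.3 and 500.2 in the DR+/+ pool, 2.01-fold lower (limma adjusted p = 0.000145). Runx1, a transcription factor of blood cell development that T cells and myeloid cells both use, had 1528 and 1791 in the DRlyp/lyp pool, against 626 and 669 in the DR+/+ pool, 2.55-fold higher (limma adjusted p = 1.04e-06). With either DRlyp/lyp array left out, 4 genes were higher, and with median centring 6 were lower and 5 higher. Csf1 and Il34 were named for their role after their values were seen.

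The lists nearest to Mrc1 and Clec10a, those of lectins, interleukin 4 responses and dendritic cells, had the following calls. Of 16 tested scavenger and lectin receptors 5 were higher and 4 lower (median -0.05), and of 11 tested genes known to respond to interleukin 4, as Mrc1 and Clec10a do in mouse macrophages, 4 were higher and 1 lower (median 0.53). Ccl17, a chemokine of that list made by dendritic cells and macrophages, had a signal of 373 and 455 in the DRlyp/lyp pool, against 226 and 200 in the DR+/+ pool. Cish, a feedback inhibitor of cytokine receptors that T cells also express, had 171.5 and 197 in the DRlyp/lyp pool, against 53.7 and 41.5 in the DR+/+ pool. Cdh1, the gene of the list that was lower, was 1.79-fold lower (limma adjusted p = 0.0149). Arg1 was dim and not past the threshold (limma adjusted p = 0.304). Retnla, Chia, Alox15 and Ccl24 were too dim to be tested. Without the filter 0 genes of the interleukin 4 list were called, and in the test against 1.5-fold 1 was higher and 0 lower. Arg1 and those too dim to be tested were named after their values were seen. Of 18 tested dendritic cell markers 10 were higher and 2 lower (median 0.22). Of these, 1 was higher and 0 lower without the filter, and the same held in the test against 1.5-fold. With no intensity trend 5 were higher and 0 lower. The probe sets of Id2, counted as higher, disagreed. The brightest was 2.62-fold higher (limma adjusted p = 2.53e-07) and another 3.6-fold lower (limma adjusted p = 0.0005). Of 11 tested monocyte and neutrophil markers 5 were higher and 1 lower (median 0.28). Without DRlyp/lyp replicate 1 the higher counts were 3 for scavenger and lectin receptors, 2 for interleukin 4 responsive genes and 5 for dendritic cell markers, and 0 genes of the interleukin 4, dendritic cell and monocyte and neutrophil lists were lower. Without DRlyp/lyp replicate 2 scavenger and lectin receptors had 3 higher and 2 lower, and dendritic cell markers 1 lower. Dendritic cell markers had 6 higher without DR+/+ replicate 2. The 1 lower call of the interleukin 4 list was lost without DR+/+ replicate 1, and that of the monocyte and neutrophil list without either DR+/+ array. With each array centred on its median, scavenger and lectin receptors had 3 higher and 6 lower and dendritic cell markers 5 higher and 4 lower, so the balance of these lists depends on the scaling.

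**Figure D3:**
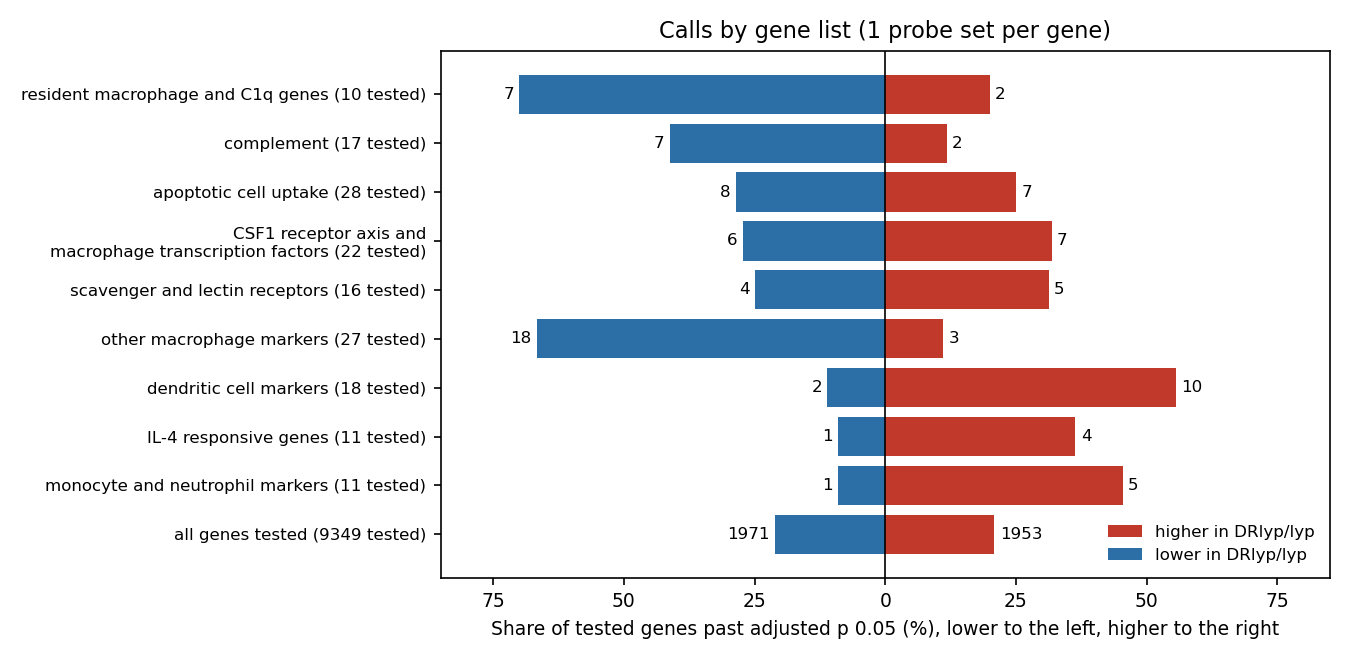
Share of tested genes past adjusted p 0.05 (percent, 1 probe set per gene) in each list, with genes higher in the DRlyp/lyp pool to the right in red, lower ones to the left in blue, and the number of genes at the end of each bar. The 10 genes (7 lower, 2 higher) and the other macrophage markers (18 lower, 3 higher) reach furthest left, and the bottom row gives all 9349 genes tested.

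Markers of other cells differed between the pools beside these genes. The summed signal of 13 tested T cell markers, all of them higher, was 11559 and 11625 in the DRlyp/lyp pool, against 2509 and 2867 in the DR+/+ pool. That of 10 exocrine pancreas genes was 9099 and 9327 in the DRlyp/lyp pool, against 229 and 235.5 in the DR+/+ pool. All 10 were called higher, but 5 of them did not exceed 28.3 on either DR+/+ array and were tested only through the DRlyp/lyp pool, where they are high. The sum of 3 erythroid markers, 2 higher and 0 lower, was 1700 and 1571 in the DRlyp/lyp pool, against 165.5 and 172 in the DR+/+ pool. Most of it was Hbb, a haemoglobin beta chain, at 1595 and 1490 in the DRlyp/lyp pool, against 126 and 144 in the DR+/+ pool (11.5-fold higher, limma adjusted p = 1.9e-09). The other higher gene, Alas2, did not exceed 28.3 on either DR+/+ array and was tested only through the DRlyp/lyp pool, where it is high. The sum of 9 B cell markers, 4 lower and 0 higher, was 11646 and 12424 in the DRlyp/lyp pool, against 15030 and 16332 in the DR+/+ pool, with 7 lower under median centring. Of 4 tested endothelial markers, 2 were lower and 1 higher, with a sum of 580 and 574 in the DRlyp/lyp pool, against 797.5 and 790 in the DR+/+ pool. Col1a1, Col3a1, Dcn, Pdgfrb and Pdpn were too dim to be tested, so this list does not cover fibroblasts. The receptor Tek was higher, at 282 and 285 in the DRlyp/lyp pool, against 140 and 171 in the DR+/+ pool (limma adjusted p = 0.00112). Lyve1 was not past the threshold on its brightest probe set, the one counted, and was lower on its other one. The endothelial receptor Kdr, at 134 and 95.1 in the DRlyp/lyp pool, against 390 and 386.5 in the DR+/+ pool, and the adhesion molecule Pecam1, at 49.6 and 73.7 in the DRlyp/lyp pool, against 142 and 119 in the DR+/+ pool, were those lower (limma adjusted p = 1.69e-05 and 0.00453), and 1 of these calls was lost without DRlyp/lyp replicate 1. The sum of 9 mast cell markers, 3 higher and 2 lower, was 2899 and 2813 in the DRlyp/lyp pool, against 1781 and 1766 in the DR+/+ pool. Mcpt1, called higher, was the largest part of it. Fcer1a was also higher, at 107.5 on both DRlyp/lyp arrays, against 82.8 and 42.8 in the DR+/+ pool. So was Il1rl1, at 120 and 114 in the DRlyp/lyp pool, against 10.3 and 12.1 in the DR+/+ pool. Il1rl1 did not exceed 28.3 on either DR+/+ array and was tested only through the DRlyp/lyp pool, where it is high. The 2 lower were Tpsab1 and Tpsb2. The sum of 6 plasma cell markers, 2 higher and 1 lower, was 17535 and 17718 in the DRlyp/lyp pool, against 14657 and 15076 in the DR+/+ pool. That of 2 eosinophil markers, 0 higher and 1 lower, was 331.5 and 302 in the DRlyp/lyp pool, against 444 and 404 in the DR+/+ pool. The 10 macrophage and C1q genes summed to 5603 and 5594 in the DRlyp/lyp pool, against 10416 and 11050.3 in the DR+/+ pool. Their sum differed in the direction of the B cell, eosinophil and endothelial sums and against the T cell, pancreas, erythroid, mast cell and plasma cell sums. Pecam1, Lyve1, Alas2, Fcer1a, Il1rl1, the tryptases and the genes too dim to be tested were named after their values were seen. The 3′ minus 5′ log2 signal of the beta-actin controls, a measure of RNA length after amplification, was 4.43 and 4.55 in the DRlyp/lyp pool, against 3.01 and 3.10 in the DR+/+ pool. On the same measure the GAPDH controls gave 2.49 and 2.44 in the DRlyp/lyp pool, against 1.74 and 1.57 in the DR+/+ pool. The part of cell makeup and of RNA length in the differences above was not tested.

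With 13 alternative settings the 3 C1q chains and Gpnmb were called lower in each. The log2 difference of C1qa ranged from -1.21 to -1.07, that of C1qb from -1.64 to -1.39, that of C1qc from -1.31 to -1.11 and that of Gpnmb from -1.77 to -1.56. In the test against a 1.5-fold difference 4 members were lower and 1, Clec10a, higher, where 5.96% of all probe sets were called.

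**Figure D4:**
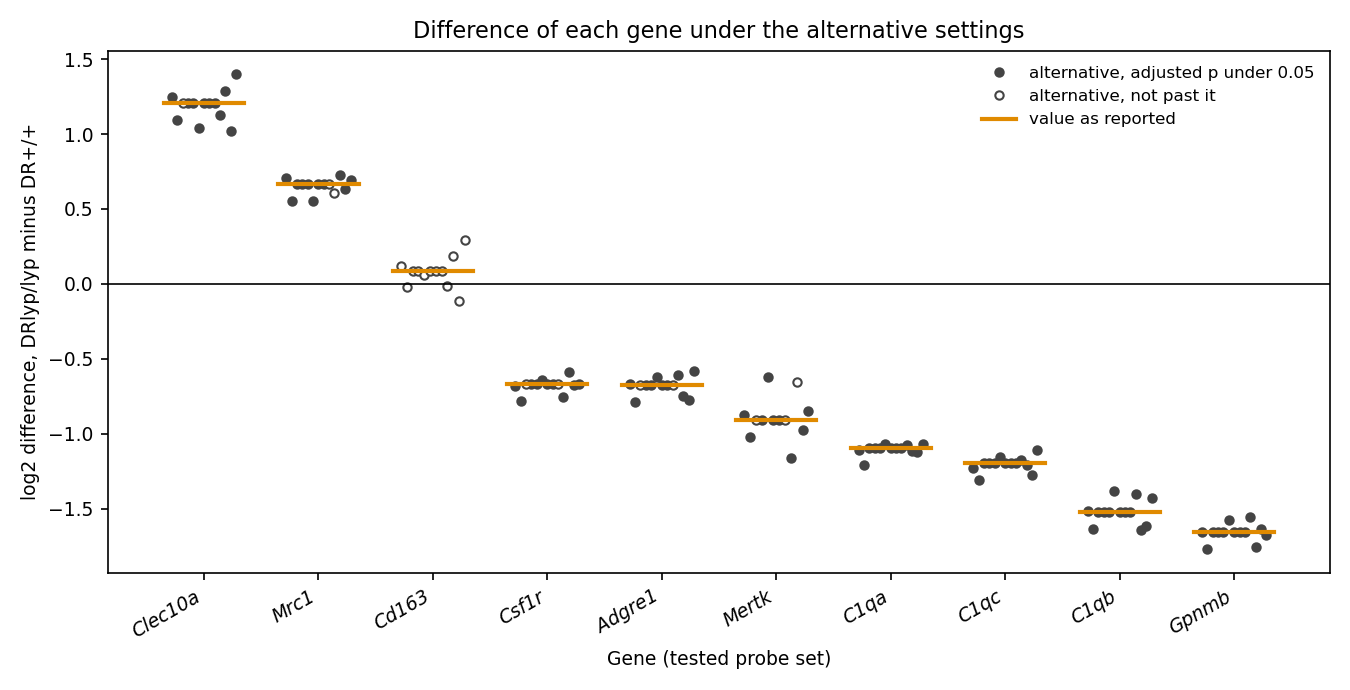
Log2 difference, DRlyp/lyp minus DR+/+, of each tested gene under the alternative settings, filled where adjusted p is under 0.05 and open where it is not, with the reported value as an orange line. Every point of C1qa, C1qb, C1qc and Gpnmb is filled and below 0, every point of Cd163 is open, and the other 5 genes each have at least 1 open point.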

How the data were processed

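The authors deposited 1 intensity value per probe set and array on a linear scale. Which program made it, and with what scaling, the sources used here do not give. Per the labels, the 4 arrays fall into 2 DRlyp/lyp (titled DP) and 2 DR+/+ (titled DR), and no separate animals stand behind the arrays of a pool. The 2% trimmed mean was 150.1 on each array. Of 31099 probe sets, 57 controls were left out. Values under 6.8, the 25th percentile of all arrays, were set to it before taking log2. The tests kept the 16068 probe sets that exceeded 28.3, the median of all arrays, on 2 or more arrays. Differences (DRlyp/lyp minus DR+/+) were tested two-sided by lmFit and eBayes of limma 3.58.1 (R 4.3.3; intensity trend, 2 residual degrees of freedom), with Benjamini-Hochberg adjustment over all of them and a threshold of 0.05; the script was checked on simulated data. Symbols came from the platform annotation of 2016, updated through RefSeq. In lists, a gene was represented by its brightest tested probe set. The members and lists were chosen with earlier results of these data known. Named were all member probe sets, up to 3 called genes each way per related list and the brightest markers of other cell types, and genes said to be named after their values were seen; examples are given. Alternatives were quantile normalization, median centring, a replicate block, no trend, a floor at the 10th percentile, a filter at the 75th or none, an offset of 50, a test against 1.5-fold, averaged probe sets per gene and leaving out each array (1 residual degree of freedom, the single array of a pool being assumed to vary like the other pool). Plots used matplotlib 3.10.9 (Python 3.11.15).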

Additional observations from a re-analysis of the deposited data

How the results depend on the processing

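The counts over the members, 7 lower and 2 higher, were the same under quantile normalization, median centring, an offset of 50, the lower floor and no intensity trend. They were 4 lower and 1 higher without a filter, where 1671 probe sets were called over all, and 4 and 1 in the test against 1.5-fold, where 958 were called over all. Leaving out 1 array, with the spread taken from the other pool and the prior over all probe sets, gave 6 to 7 lower, 1 to 2 higher and 3478 to 5800 calls over all, against 6302 with every array, and no intensity trend gave 4057 over all. With the filter at the 75th percentile 8 members were tested, 6 of them lower and 2 higher, and Cd163 and Mertk gave no value. Same-numbered arrays share only a number (correlation of their deviations 0.04), and with the replicate block 7 members were lower, 2 higher and 7044 probe sets called. Median centring moved the median of all probe sets to -0.11, and 36.2% of calls were then higher, against 49.3%. The difference of Cd163 changed sign under median centring (-0.023) and ranged from -0.12 to 0.29 with 1 array left out. That of Gas6 was -0.036 under median centring and ranged from -0.13 to 0.28 with 1 array left out, and that of Epor, an erythroid marker, from -0.22 to 0.59. Averaged over their probe sets, Zeb2 (-0.074) and Id2 (-0.23) changed sign. With no filter, the calls of Csf1r (adjusted p = 0.0597), Adgre1 (0.0858), Clec10a (0.0807) and Mertk (0.164) were lost. So were those of Axl, Pros1, Spic, Lyz2, Ptgs1, Cish, Ccl17 and Aif1, and the test against 1.5-fold lost Axl, Spic, Cd68, Lyz2, Ptgs1 and Ccl17. The cause was not tested for any of these. Signals below 28.3, as of the dim Mertk probe set, were not shown to be above background.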
